A study of Homo sapiens with 12 samples.

Results

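The metallothionein genes MT2A, MT1E, MT1M, MT1A, MT1B, MT1F, MT1G, MT1H and MT1X lie side by side on the long arm of chromosome 16. Their chromatin was described from every deposited ChIP-seq (chromatin immunoprecipitation followed by sequencing) peak that overlapped, by at least 1 bp, a 90 kb window of chromosome 16 chosen to hold these genes (hg19 coordinates, 1-based). Its first peak spans 56634892 to 56635172 and its last 56724334 to 56724544. The window held 102 peaks of 1552170 over the 10 ChIP libraries. The control had 18 peaks of FLAG, 16 of H2A.Z, 10 of acetylated H2A.Z (H2A.Zac), 3 of H3K27ac and 4 of H3K4me1. With VPS72 overexpression these were 12, 11, 14, 3 and 11. The window was set by position and not by any measured value. In the band map of hg19, 65 kb of it belong to 16q12.2 and 25 kb to 16q13. At its edges, the control FLAG peak across the start of the window had a fold of 2.45 and 3 reads, and the nearest peak before it, of overexpression FLAG, had 2.25 and 2 reads. The last peak inside, of control H2A.Z, had a fold of 2.92 and 6 reads, and the next after the window, of overexpression FLAG, had 2.00 and 2 reads.

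All libraries came from Huh7, an established hepatocellular carcinoma line, whose own VPS72 gene carries a FLAG tag, added with Cas9 behind its last codons. VPS72 belongs to the SRCAP and TIP60 chromatin complexes and is a chaperone of the histone variant H2A.Z. The control cells received lenti-HA virus, called an empty vector in the design text, and the overexpression cells lenti-VPS72-FLAG virus, both for 24 h. The tagged cells had been selected with blasticidin and grown from surviving colonies, and the labels do not say whether 1 clone or several were used. The genotype labels of the overexpression ChIP libraries carry a running series of other VPS names, whereas the titles say VPS72, which was followed. For either condition there was 1 input library and 1 library per antibody. FLAG marks the endogenous VPS72 in the control, and both that and the viral protein with overexpression. Liver markers were not checked, since no gene annotation in the coordinates of the files was used here.

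Metallothioneins are small cysteine-rich proteins that bind zinc and copper and take up toxic metals such as cadmium. In liver they buffer zinc, and their genes are switched on by metals through the zinc finger factor MTF1, which binds metal response elements in their promoters, and by glucocorticoids and oxidative stress. MT2A and the MT1 genes are the widely expressed members, MT3 is known from brain and MT4 from squamous epithelium. H2A.Z sits at promoters and enhancers, and its acetylated form is found where these are active. H3K27ac marks active promoters and enhancers, and H3K4me1 marks enhancers and the flanks of promoters.

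In the RefSeq gene table (GRCh38.p14), 15 genes follow one another from MT2A to MT1X. The order is MT2A, MT1L, MT1E, MT1M, MT1JP, MT1A, MT1DP, MT1CP, MT1B, MT1F, LOC101927536, MT1G, MT1H, MT1IP and MT1X, of which 9 are protein coding, 5 are pseudogenes and 1 is a lncRNA. Only this order was taken from that table. The peaks are in hg19, so no peak was assigned to a single gene, and they are named below by their place along the window.

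Promoters of 4 of the 9 genes were found in the RefSeq promoter table. They are shown because they carry the element by which this family answers to metal. Each is the 250 bases before the transcription start, 5′ to 3′, on the plus strand of chromosome 16 in GRCh38.p14, and capitals mark the core of the metal response element, TGCACNC or TGCGCNC, on either strand. These GRCh38 positions were not converted to hg19 here, so they are not to be read against the positions of the peaks.
MT2A (chr16:56608334-56608583): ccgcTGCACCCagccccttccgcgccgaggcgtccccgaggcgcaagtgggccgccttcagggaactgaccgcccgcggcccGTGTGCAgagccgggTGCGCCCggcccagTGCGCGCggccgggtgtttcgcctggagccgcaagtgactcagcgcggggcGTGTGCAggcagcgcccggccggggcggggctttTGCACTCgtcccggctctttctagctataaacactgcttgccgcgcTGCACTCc
MT1B (chr16:56651636-56651885): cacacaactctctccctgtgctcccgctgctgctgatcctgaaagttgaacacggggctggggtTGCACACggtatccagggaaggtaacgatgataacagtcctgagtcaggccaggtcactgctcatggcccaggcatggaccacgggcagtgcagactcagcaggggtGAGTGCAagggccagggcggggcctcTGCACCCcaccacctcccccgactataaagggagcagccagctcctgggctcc
MT1H (chr16:56669564-56669813): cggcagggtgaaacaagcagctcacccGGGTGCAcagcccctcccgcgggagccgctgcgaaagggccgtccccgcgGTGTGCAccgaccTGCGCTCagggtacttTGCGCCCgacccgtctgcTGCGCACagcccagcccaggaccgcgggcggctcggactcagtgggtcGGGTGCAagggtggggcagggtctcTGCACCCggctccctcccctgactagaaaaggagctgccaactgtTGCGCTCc
MT1X (chr16:56682220-56682469): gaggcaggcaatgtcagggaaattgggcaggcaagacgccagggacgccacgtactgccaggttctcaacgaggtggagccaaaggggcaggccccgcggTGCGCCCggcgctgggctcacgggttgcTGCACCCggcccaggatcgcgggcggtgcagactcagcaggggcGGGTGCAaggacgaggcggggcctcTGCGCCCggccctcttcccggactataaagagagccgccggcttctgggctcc

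MT2A had 7 cores, MT1H 8, MT1X 4 and MT1B 3. Of 27305 promoters of the same length in the table, 24.7% held at least 1 core, 0.366% held at least 4 and 0.033% at least 7. A TATAAA box began 29 bases before the start in MT2A and 30 bases before it in MT1B and MT1X, and none was found in MT1H; 11.1% of all promoters held 1 on either strand. GGGCGG, the core of the GC box, was found on either strand 2 times in MT2A and in MT1X and 1 time in MT1B and in MT1H, against 42.3% of promoters with at least 1, and in MT1X it overlapped 1 metal response core. MT1B had 7 CpG dinucleotides in these 250 bases and the other 3 had 22 to 32. The longest run of bases that 2 of these promoters shared was 18, between MT1B and MT1X. Of other genes of metal handling and oxidative stress, MT4 had 3 cores, GCLC of glutathione synthesis had 2, the zinc exporter SLC30A1 and GCLM had 1 each, and MTF1, SLC30A10, SLC39A8 and SLC39A10 had none.

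H2A.Z and its acetylated form were dense in the window. In the control H2A.Zac formed 10 regions, all with a q of 0.05 or less (49.3% of the whole list had one), which together covered 14.9% of the window against 1.34% of the genome. A mean of 1.19 such regions would fall in 90 kb of the genome, and 0.454% of 33727 tiles of 90 kb held 10 or more, a description of how dense the window is. The 90 kb before the window and the 90 kb after it had 1 each. With overexpression H2A.Zac had 9 regions of that q (38.2% of its list), covering 11.8% against 0.816%, and 0.249% of tiles held as many. Total H2A.Z formed 8 regions of that q in the control (14.3% of its list), covering 7.30% against 0.642%, with 2 on either side. The genome mean was 0.774 per 90 kb, and 0.279% of tiles held 8 or more, so relative to its own list total H2A.Z was as dense as H2A.Zac in the control (11.4 and 11.1 times the genome's coverage). H3K27ac and H3K4me1 had 2 regions each there (42.5% and 16.2% of their lists), and 19.9% and 13.3% of tiles held as many. They covered 2.86% and 1.27% of the window, against 1.08% and 0.49% of the genome. The inputs had no peak in the window, and the local background behind the histone peaks had medians of 1.00 to 1.23 times the genome average, and those behind the FLAG peaks 1.46 and 1.56.

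**Figure D1:**
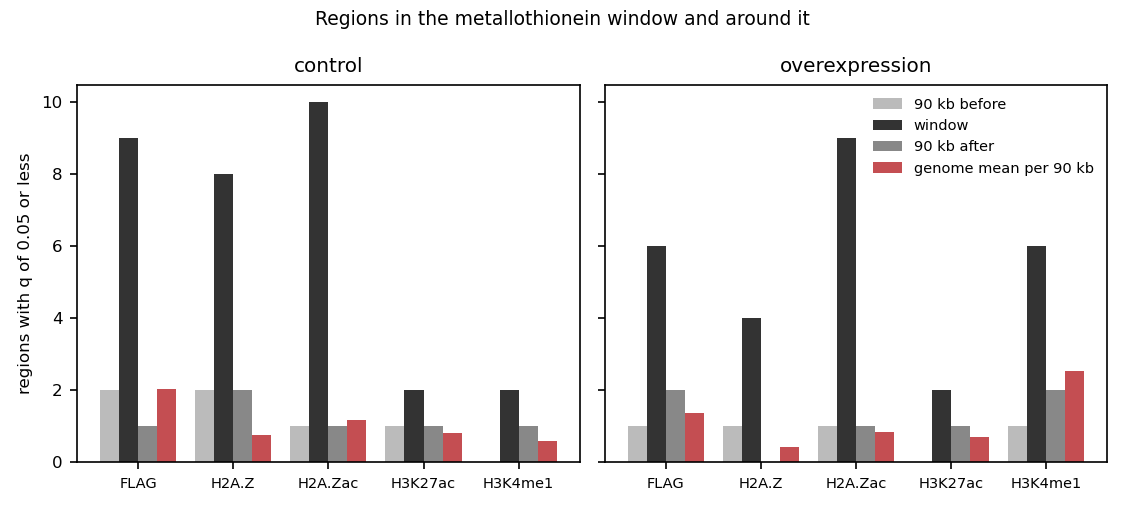
Regions per antibody whose q was at most 0.05 in the 90 kb window, in the 90 kb before and after it, and the genome mean per 90 kb, for the control (left) and overexpression (right); bars start at 0 and each stands for 1 library. H2A.Zac has 10 and 9 regions in the window and 1 on either side of it.

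Peaks of the 4 histone antibodies less than 500 bp apart were joined, which gave 11 sites with at least 1 region of a q of 0.05 or less, numbered here by increasing coordinate. Site 1 spans 56640223 to 56644005 and is the widest, at 3783 bp. Sites 2 to 6 start at 56649864, 56658738, 56665690, 56671984 and 56676808. Site 7, of 300 bp, held H3K4me1 alone. Sites 8 to 11 start at 56681444, 56691143, 56709531 and 56715257. The longest stretch without a site, 16.7 kb, lies between sites 9 and 10.

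**Figure D2:**
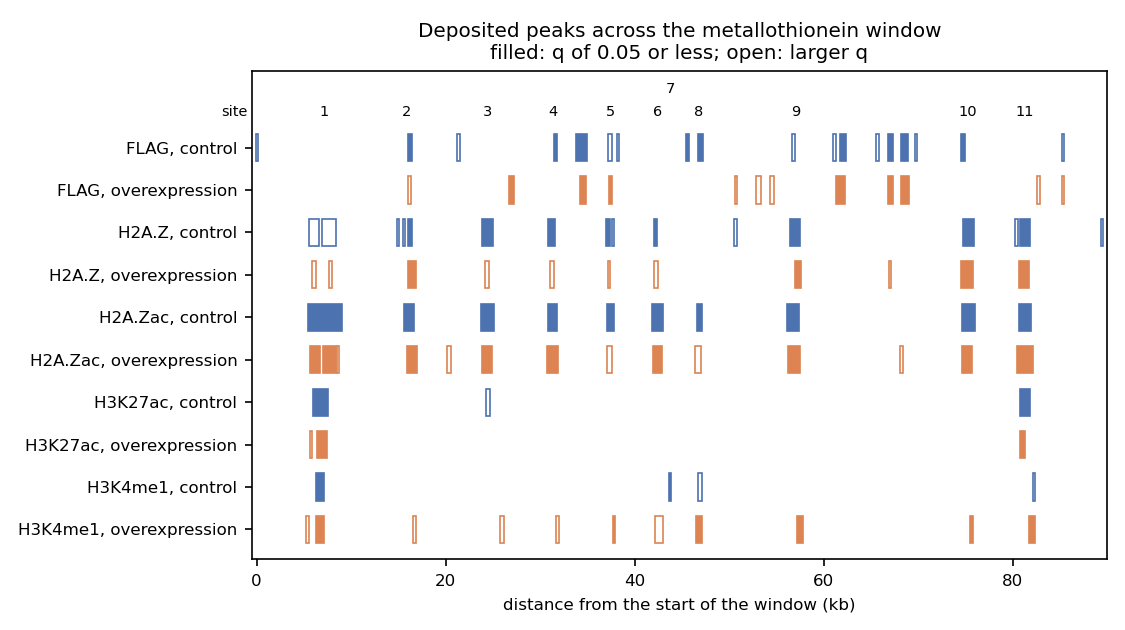
Position of all deposited ChIP peaks along the window, as distance from its start in kb, with 1 row per library and the site numbers above; filled boxes have a q of 0.05 or less and open boxes a larger q. H2A.Zac boxes line up at 10 sites in both conditions, H3K27ac boxes lie at sites 1, 3 (open, control alone) and 11, and the strongest FLAG boxes lie between sites.

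H2A.Zac was highest at site 9, with a summit at 56691677 in the control and 56691705 with overexpression. Its height there (reads at the summit divided by the average of that library over the genome) was 28.9 in the control (56 reads) and 20.2 with overexpression (45 reads). Of the H2A.Zac regions of that q in the genome, 3.11% and 2.98% had a higher −log10 q than this one. Site 11 came next in the control with 23.2 (45 reads), followed by site 3 with 22.7 (44 reads). With overexpression their order was the other way round, 13.9 at site 11 and 14.8 at site 3. The lowest of the 10 sites were site 5, with 6.70 and 4.03, and site 8, with 5.15 and 3.13. Control H2A.Zac regions in the window had a median width of 1254 bp and a median height of 15.98, against 890 bp and 9.79 over the whole list. For overexpression regions of that q the median widths were 1132 and 773 bp, but the median height was 8.955 in both the window and the list.

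Total H2A.Z had lower summits than H2A.Zac at most sites in the control. Control H2A.Z was highest at site 4, with 12.2 (17 reads), then at site 9 with 10.7 and site 3 with 10.0, and its other sites ranged from 5.73 to 7.87. The height of H2A.Zac over that of H2A.Z was 3.24 at site 11, 2.97 at site 2 and 2.88 at site 1, but 0.936 at site 5. At site 1 the H2A.Z and H2A.Zac summits compared in the control lay 2157 bp apart, and that H2A.Z peak had a q above 0.05. With overexpression the height ratio was below 1 at sites 2, 4, 5 and 10 (0.833, 0.882, 0.735 and 0.678) and highest at site 3, with 3.46. Its median was 2.52 over 9 sites in the control and 1.69 with overexpression, against 1.92 and 1.55 over all H2A.Zac regions with an H2A.Z peak. The antibodies and libraries differ, so this ratio orders sites within a condition and is not a share of acetylated H2A.Z. All 8 control H2A.Z regions overlapped H2A.Zac, as did 74.5% of such regions in the genome, with summits 38 to 341 bp apart. Seen from H2A.Zac, 9 of 10 control regions overlapped any H2A.Z peak (72.4% in the genome), and 9 of 9 did with overexpression (67.9%).

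H3K27ac was limited to few of the sites that carried H2A.Zac. Of the 10 control H2A.Zac regions 3 overlapped any H3K27ac peak, whereas 59.4% of the 40081 in the genome did. With overexpression it was 3 of 9, against 64%, namely both H2A.Zac regions of site 1, at the same H3K27ac peak, and the region of site 11. The H3K27ac peaks lay at site 1, with 18 control reads and a height of 9.62, at site 11, with 16 reads and 8.55, and at site 3, with 8 reads, 4.28 and a q above 0.05. Site 9, the highest for H2A.Zac, had no H3K27ac peak in either condition. The limit at which these lists were kept is not given, and a p of 0.05 was assumed here. At a local background equal to the genome average, a summit of 5 reads passes it, a height of 2.67 in the control and 2.33 for overexpression. H3K27ac below that height could thus be present at the other sites. At site 1 the control H3K27ac summit lay 1207 bp from the control H2A.Zac summit, inside an H2A.Zac region 3548 bp wide.

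**Figure D3:**
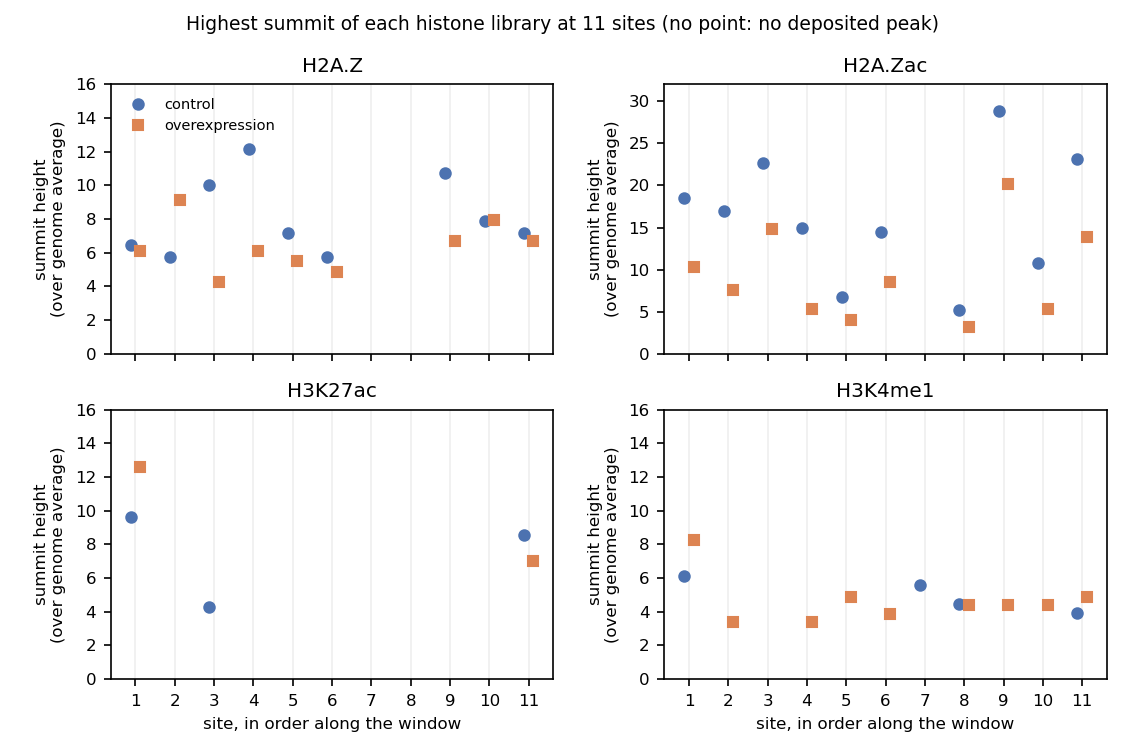
Highest summit of each histone library at the 11 sites, in reads over the genome average of that library, for the control (circles) and overexpression (squares); 1 point is 1 library, and no point means no deposited peak. H2A.Zac squares lie below the circles at all 10 sites, from 28.9 and 20.2 at site 9 to 5.15 and 3.13 at site 8, and H3K27ac has points at sites 1, 3 and 11.

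With VPS72 overexpression H2A.Zac was lower at each of its 10 sites. No replicate check is possible with 1 library per group, and the intervals that follow are exact 95% intervals for counting error only. All 10 control regions were found again as deposited H2A.Zac peaks, against 74% of all such regions in the genome. The median height ratio of these regions, overexpression over control, was 0.594, from 0.359 to 0.698. Over the summits of all 10, 315 control and 208 overexpression reads gave a ratio of 0.574 (0.479 to 0.686). That range holds 0.652, the median over all 29649 shared H2A.Zac regions of the genome, of which 4.48% were higher with overexpression. The summed ratio gives tall summits more weight, whereas the genome value is a median of single ratios, so these measures are not alike. Whether the window differed from the whole list was not tested. At single sites the interval excluded 1 at 4 of 10, as it did for 23.8% of the shared regions of the genome. These were site 4, with 29 and 12 reads and a ratio of 0.359 (0.167 to 0.726), site 2 with 0.448 (0.234 to 0.827), site 1 with 0.555 (0.314 to 0.963) and site 11 with 0.598 (0.366 to 0.967). Regions of that q selected in the overexpression list were all found in the control, 9 of 9 (93.3% in the genome), and none was higher (6% in the genome). Of these 9, 2 lie in the single control peak of site 1. With the higher of them kept, 8 pairs with 292 and 192 reads gave 0.571 (0.474 to 0.688). A loss of acetylated H2A.Z and a lower enrichment of the whole library cannot be told apart.

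**Figure D4:**
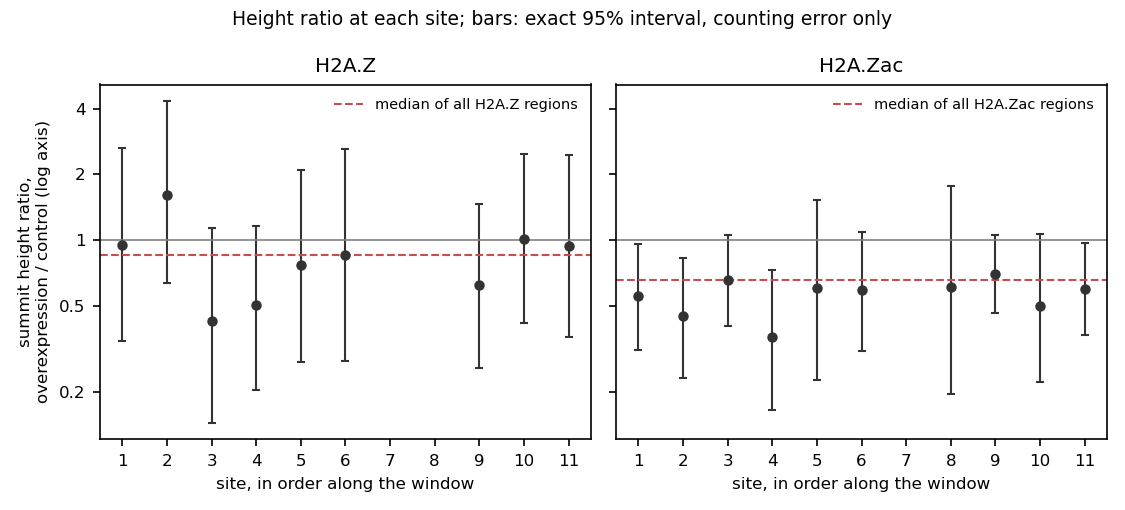
Ratio of summit height, overexpression over control, at each site on a log axis for H2A.Z (left) and H2A.Zac (right); points are 1 library against 1 library, bars are exact 95% intervals for counting error only, and the dashed line is the median over all shared regions of that antibody selected in the control. All 10 H2A.Zac points lie below 1, most of them below the dashed line at 0.652 with bars that cross it, and H2A.Z points lie on both sides of 1.

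The height ratio of total H2A.Z was below 1 at 7 and above 1 at 2 of 9 sites, from 0.426 at site 3 (14 and 7 reads) to 1.60 at site 2 (8 and 15 reads), and no site had an interval that excluded 1 (0.386% of shared regions in the genome had). By the authors' fold, which takes in the local background, the ratio was above 1 at sites 1, 2, 10 and 11 (1.4, 1.41, 1.23 and 1.05). It was below 1 at the other sites, from 0.423 at site 3 to 0.983 at site 6. At site 1 the highest H2A.Z peaks of the 2 conditions did not overlap, with a summit shift of −2014 bp. Over the 8 control regions, 93 and 84 reads gave 0.769 (0.566 to 1.04), and the median ratio of 0.809 stood beside 0.852 in the genome, where 28.6% of shared regions were higher. All 8 control regions overlapped a deposited overexpression peak (60.5% in the genome), but 4 of these had a q above 0.05. The window held 4 H2A.Z regions of that q with overexpression, at sites 2, 9, 10 and 11 (24.3% of that list). For these 4, all found in the control (89.7% in the genome), the reads gave 0.968 (0.632 to 1.49), and 2 were higher, against 49.3% in the genome. The share of H2A.Z regions that were higher thus depended on the list in which regions were selected.

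H3K27ac differed by less than counting error at both sites that had it in both conditions. At site 1 it had 18 control and 27 overexpression reads, heights of 9.62 and 12.6 and a ratio of 1.31 (0.695 to 2.52). At site 11 it had 16 and 15 reads, heights of 8.55 and 6.995 and a ratio of 0.818 (0.377 to 1.77). The summed reads gave 1.08 (0.670 to 1.75), beside a genome median of 0.748, with 12.7% of shared regions higher, and at this depth neither a rise nor a fall of that size was detectable. At the same 2 sites H2A.Zac had ratios of 0.555 and 0.598. Both regions were found in both lists, whichever was used to select them (84.5% of control and 90.5% of overexpression regions in the genome), and from the overexpression list (2 regions, 31.2% of its peaks) 14.3% of shared regions were higher. The weak control peak at site 3 had no overexpression counterpart.

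H3K4me1 was found at more sites with overexpression. In the control it had peaks at sites 1, 7, 8 and 11, of which those at sites 1 and 7 had a q of 0.05 or less. With overexpression it had peaks at 9 sites, and at sites 1, 5, 8, 9, 10 and 11 the q was 0.05 or less (55.2% of that list). The peaks were low. Site 1 was the highest, with 11 control reads and a height of 6.14 and 17 overexpression reads and 8.27, a ratio of 1.35 (0.596 to 3.18). At sites 9 and 10, where the control had no peak, there were 9 reads each, or 4.38 times the genome average. In the control 5 reads (2.79 times) would have passed the assumed p of 0.05. Of the 6 overexpression regions 3 overlapped any control peak, near the 55.2% of the genome, and 2 of these 3 were higher (76.4% in the genome). Of the 2 control regions 1 was found again (89.7% in the genome), and it was higher (62.3% in the genome). The H3K4me1 list at this q was longer with overexpression throughout, at 2.54 against 0.596 regions per 90 kb, beside 6 against 2 in the window. Of the H2A.Zac regions, 2 of 10 overlapped any H3K4me1 peak in the control (39.2% in the genome) and 8 of 9 with overexpression (46.2%). These 8 include both H2A.Zac regions of site 1, and at sites 2, 4 and 6 the H3K4me1 peak had a q above 0.05.

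Most H3K4me1 summits lay at a higher coordinate than H2A.Zac. At the 9 sites that had both marks with overexpression, the highest H3K4me1 summit lay at a higher coordinate than the highest H2A.Zac summit, by 198 bp at site 8 to 1079 bp at site 11. The distance was 963 bp at site 4, 989 bp at site 9 and 581 bp at site 10. The control had both at sites 1, 8 and 11, with H3K4me1 at the higher coordinate by 494, 10 and 1103 bp. Site 1 also held a weaker overexpression H3K4me1 peak, of 6 reads, at 56640223 to 56640564, whose summit lay below all H2A.Zac summits there. Counting every H3K4me1 summit of the window within 1500 bp of the nearest H2A.Zac summit with a q of 0.05 or less, 8 of 9 lay at the higher coordinate and 1 at the lower with overexpression, and 3 of 3 at the higher in the control. In the genome 49.6% of 23902 H3K4me1 summits counted in this way lay at the higher coordinate with overexpression and 50.1% in the control. That share takes genes of both strands together, so it cannot show how H3K4me1 lies relative to transcription or whether the window is unusual in this. This arrangement was noticed after the values were seen and was not tested, and the sites are not separate samples. The 4 metallothionein genes with a promoter in the RefSeq table all run on the plus strand, towards the higher coordinate. The strand of the other members was not looked at here, so the cluster need not run in 1 direction. Whether the side of H3K4me1 follows the direction of the genes was not tested, as no peak was assigned to a gene.

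FLAG had its strongest regions between the histone sites. FLAG peaks were joined in the same way into 11 regions that reached this q in at least 1 condition, numbered along the window. The control had 9 peaks of that q (37.1% of its list) and overexpression had 6 (8.39%), and regions 4, 8, 9 and 10 reached it in both. The genome means per 90 kb were 2.03 and 1.37, and 5.7% and 5.36% of tiles held as many peaks as the window. FLAG peaks of that q covered 5.43% and 4.12% of the window, against 1.77% and 1.15% of the genome. Region 10 (56703156 to 56704024) had 15 reads, a height of 32.9 and a fold of 10.7 in the control and 10 reads, 30.4 and 7.77 with overexpression. Region 8 (56696034 to 56697389) had 17 and 7 reads and heights of 37.3 and 21.2. Its folds were 7.43 and 4.01, as the local background there was 3.122 and 3.025 times the genome average. Region 4 (56668816 to 56669947) had 15 and 9 reads, heights of 32.9 and 27.3 and folds of 7.74 and 6.01. Region 9 (56701831 to 56702311) had 10 and 8 reads, heights of 21.9 and 24.3 and folds of 6.90 and 6.36. The FLAG summits of these 4 regions moved by 1 to 90 bp between conditions. They lay 1801 to 7219 bp from the nearest histone site, and no control histone peak of any q overlapped them. Of control FLAG regions of this q in the genome, 21% overlapped any H2A.Z peak, 14.8% H2A.Zac, 8.57% H3K27ac and 11.4% H3K4me1. The median distance from FLAG to H2A.Zac summits, both of this q, was 1174 bp in the window and 17118 bp in the genome. These values are for the control, and they were 5084 and 23791 bp with overexpression. With overexpression region 9 overlapped an H2A.Z peak and region 10 an H2A.Zac peak, both with a q of 1. FLAG ChIP of untagged cells was not analysed here, so these regions need not be VPS72 binding sites.

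**Figure D5:**
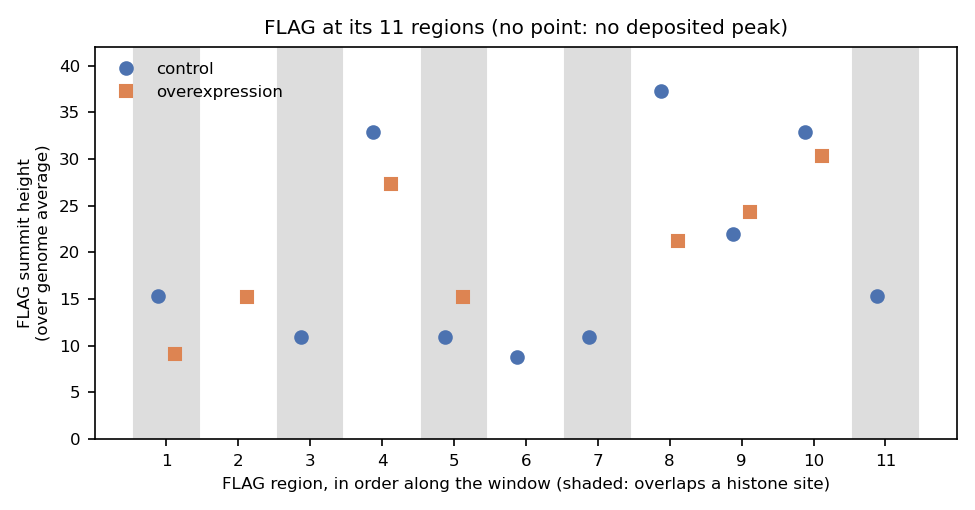
FLAG summit height over the genome average at the 11 FLAG regions in order along the window, for the control (circles) and overexpression (squares), 1 library each; shaded regions overlap a histone site, and no point means no deposited peak. Regions 4, 8, 9 and 10, all unshaded, have the highest points, between 21.2 and 37.3.

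Weaker FLAG did coincide with H2A.Z. Control FLAG peaks of a q of 0.05 or less overlapped H2A.Zac in 4 of 9 cases and H2A.Z in 3 of 9, against 14.8% and 21% of such FLAG regions in the genome. These were region 1 at site 2, with 7 reads, region 3 at site 4 with 5, region 7 at site 8 with 5 and region 11 at site 10 with 7, region 7 overlapping H2A.Zac but not H2A.Z. Control H2A.Zac covered 14.9% of the window against 1.34% of the genome, and how much of the overlap goes with this density was not tested. Seen from H2A.Zac, 6 of 10 control regions overlapped any FLAG peak (27.6% in the genome), but with overexpression 1 of 9 did (29.7%). At sites 4, 8, 9 and 10 the overexpression list had no FLAG peak. At site 2 FLAG had 7 and 3 reads, a ratio of 0.593 (0.099 to 2.60), and at site 5 it had 5 and 5. The FLAG libraries were the shallowest, with depths estimated at 4.38 M and 3.07 M reads against 17.9 to 25.0 M for the histone libraries, and the control peaks at these 4 sites rest on 4 to 7 reads each. Over the 5 control regions found again, 64 and 37 reads gave a ratio of 0.80 (0.519 to 1.22), beside a genome median of 0.865, with 36.5% higher. Of the 9 control regions 5 were found again, against 68.4% in the genome, and from the overexpression list 5 of 6 had a control peak, against 74%; 2 of these 5 were higher (59.1% in the genome). With overexpression 2 of 6 FLAG regions overlapped any H2A.Zac peak and 2 of 6 any H2A.Z peak, against 12.3% and 11.3%. These were region 5 for both marks, region 10 for H2A.Zac and region 9 for H2A.Z. None of the histone peaks that they overlapped had a q of 0.05 or less, and regions 9 and 10 lie between the histone sites.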

How the data were processed

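The ChIP-seq peak lists of 12 Huh7 libraries were used, and groups came from the sample titles. FastQC, Trimmomatic, BWA and MACS2 are named, without versions, per the submitters' processing notes, and for the control and thresholds of peak calling the sources used here give nothing. The fold (a ratio of the summit to local background, a constant added to both) and the −log10 p and q at each summit are the authors' deposited values; the second deposited list repeated the summits in 12 of 12 libraries. The notes name hg19 and hg38: no peak passed an hg19 chromosome end, and on 14 of 23 chromosomes some passed the hg38 end (GenomeInfoDb 1.38.1; bands from circlize 0.4.16).

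The MACS2 Poisson model ties the fold and the −log10 p of a summit to its whole number of reads, which was solved for (tolerance 0.002 in −log10 p, relative where that is above 1). This gave a whole number for at least 99.999% of each list, and was tested on simulated data (4 settings, 11609 peaks, 99.96% recovered). The genome average is the lowest local background shared by at least 1% of a list, and depth follows from it with an assumed 2.7 Gb. Shared means an overlap of at least 1 bp with any deposited peak, the highest summit being taken, and in summed reads a peak matched by several regions was counted 1 time. Ratio intervals are exact binomial 95% intervals on the reads. With 1 library per group nothing was tested between conditions. Peaks with a q of 0.05 or less were named; the members, lists and the 500 bp joining were chosen with earlier results of these data known. Software was scipy 1.17.1, pandas 2.3.3, numpy 2.4.6 and, for plots, matplotlib 3.10.9, under Python 3.11.15.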

Additional observations from a re-analysis of the deposited data

How the results depend on the processing

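Of 95 values under the alternatives, 71 stayed within the limits of the reported ones (1.5 times for counts and coverage, the counting interval for shares and ratios), 24 moved and 0 reversed. Moving the ends of the window by 10 kb outwards or 5 kb inwards, asking for the summit inside it, asking for an overlap of 0.5 of the shorter peak, selecting regions in the overexpression list and using the authors' fold moved no value past them. The limit on q did. Peaks in the window at a q of 0.05 or less numbered 9, 8 and 2 for control FLAG, H2A.Z and H3K4me1, and 6, 4, 9 and 6 for overexpression FLAG, H2A.Z, H2A.Zac and H3K4me1. At a q of 0.01 or less these were 5, 6 and 0, and 5, 2, 9 and 3. Covered percent of the window over all deposited peaks was 8.37, 11.8 and 1.99 for control FLAG, H2A.Z and H3K4me1, and 6.46, 6.86 and 6.10 for overexpression FLAG, H2A.Z and H3K4me1. At a q of 0.01 or less it was 0 for control H3K4me1, and 2.39 for H2A.Z and 1.91 for H3K4me1 with overexpression. Of control H2A.Z regions, 50.0% were found when the overexpression peak also had a q of 0.05 or less. No paired analysis was possible because each group had 1 library. Low read counts limit FLAG, H2A.Z and H3K4me1, each with at most 17 reads at a summit of the window. Of these antibodies only FLAG had shallow libraries, estimated at 4.38 M reads in the control and 3.07 M with overexpression. H2A.Z had 17.9 M and 20.4 M, and H3K4me1 had 22.6 M and 21.8 M.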

Other observations

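Beside the 11 sites, 6 places in the window had histone peaks with a q above 0.05 alone, each in 1 library. Control H2A.Z had them at 56685567 to 56685876 and at 56724334 to 56724544. With overexpression H2A.Zac had them at 56655161 to 56655521 and 56703097 to 56703459, H3K4me1 at 56660773 to 56661136 and H2A.Z at 56701957 to 56702173. The last lies inside FLAG region 9, and 56703097 to 56703459 overlaps FLAG region 10, in the 16.7 kb that hold no other histone peak.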
